A study of Danio rerio with 2 samples.

Results

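The paraxial mesoderm is the tissue on either side of the neural tube that is cut into somites, the blocks from which skeletal muscle and vertebrae form. Its open chromatin was examined at 10 genes that mark the path from presomitic mesoderm to somite, namely tbx16, msgn1, tbx6, mespaa, mespab, mespbb, ripply2, ripply1, myf5 and myod1. Regions were taken where the authors' deposited table assigned them to one of these genes by symbol or gene identifier. Regions with no assigned gene were added where the nearest transcription start site (TSS) of the table was that of one of these genes and the region's centre was at most 50 kb from it. This gave 32 of the 35854 deposited regions, 19 assigned and 13 without an assigned gene, and all 10 genes had at least 1. The number per gene ran from 1 at each mesp gene to 8 at tbx16.

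Open chromatin was read by ATAC-seq, a method in which Tn5 transposase cuts accessible DNA and tags it for sequencing. There was 1 library from a mutant carrying 2 copies of the bns297 allele of npas4l and 1 from the wild type, each made from a single whole embryo at the 1-somite stage without chorion and yolk. The growth label of both records names wild-type AB embryos, and the background of the mutant is not described separately. All coordinates refer to GRCz10, as the authors' table gives them. Npas4l, the bHLH-PAS factor lost in cloche mutants, starts the endothelial and blood programmes, and the comparison asks where accessibility differs without it. The npas4l gene was not analysed here, so the genotype rests on the labels.

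Mesoderm cells leave the tailbud, pass through the presomitic mesoderm and mature towards its anterior end, where a molecular clock and a maturation front set each segment border. T-box factors and Msgn1 act in the posterior and middle presomitic mesoderm, Mesp factors mark the next segment, and Ripply proteins shut the earlier programme down at the forming border. Myogenic bHLH factors then start muscle differentiation, although in zebrafish both myf5 and myod1 are already on in the adaxial cells beside the notochord.

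With 1 library for each genotype, differences were not tested and p-values are not given, and genotype cannot be told apart from any other difference between these 2 embryos. Values are normalised read counts per region as scaled by the authors, and each log2 ratio is that of mutant + 1 over wild type + 1. The 95% interval in parentheses comes from how the reads of a region split between both libraries (exact, Clopper-Pearson). PCR reads that carry no molecular identifiers are not counts of molecules, so the intervals cover counting error only. The regions held 7066666 recovered reads in the mutant library and 7853828 in the wild type library. In a whole embryo, fewer cells of a type and less accessible DNA per cell cannot be told apart.

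Most open regions of the somite genes held fewer reads in the mutant library. Of the 32 regions 27 had a log2 ratio below 0, a direction shared by 49.3% of all regions. The interval lay under 0 for 20 of the 32, against 18.0% of all regions, and above 0 for 2, against 20.02% of all regions. The differences were moderate: 1 region was lower by 2-fold or more, against 4.03% of all regions, and 1 was higher by as much, against 3.78%. The median log2 ratio of the 32 regions was −0.49, with quartiles of −0.75 and −0.20, and that of all regions was 0. Summed over the 32 regions there were 3013 normalised reads in the mutant library, against 4039 in the wild type library, a 1.34-fold difference (log2 −0.42, −0.49 to −0.35).

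**Figure D1:**
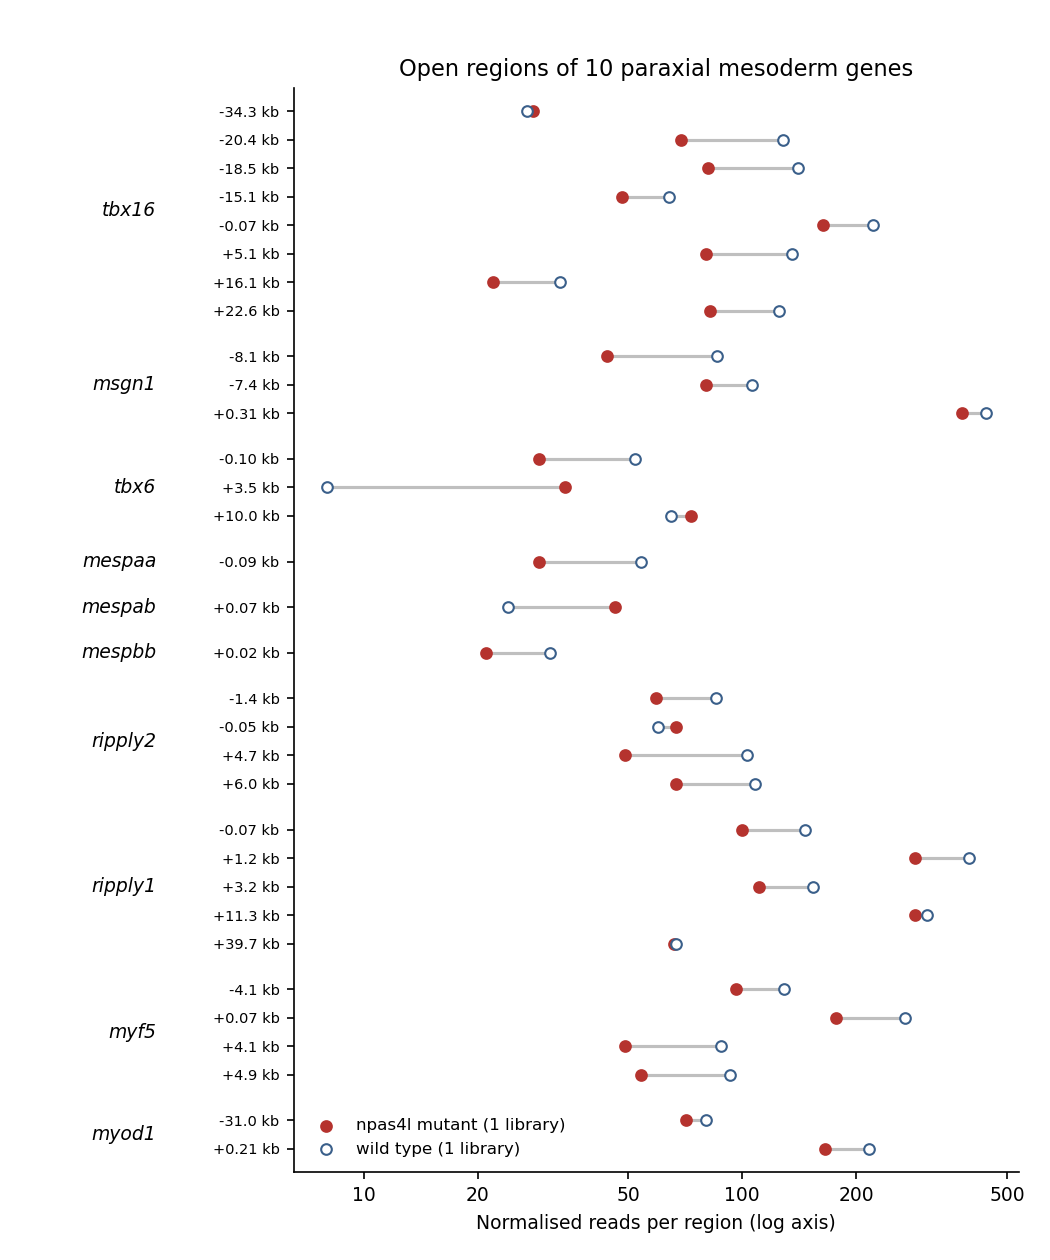
Normalised reads per region on a log axis for the 32 regions, with the npas4l mutant library as filled and the wild type library as open points, 1 library each. Rows follow the order from presomitic mesoderm to somite, and within a gene the distance of the region's centre from the TSS, negative upstream; the wild type point lies to the right in 27 rows.

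The T-box gene tbx16 (ENSDARG00000007329), known from the spadetail mutant and needed for trunk mesoderm to leave the midline and form somites, had the largest set. Its promoter region on chromosome 8, 51767013 to 51767286, held 163 normalised reads in the mutant library, against 221 in the wild type library (log2 −0.44, −0.74 to −0.14). A region inside the gene, 5.09 kb past the TSS, held 80 mutant against 135 wild type reads (−0.75, −1.18 to −0.35). Both were thus lower in the mutant library beyond counting error. Upstream, the region 20.4 kb away at 51787335 to 51787685 held 69 normalised reads in the mutant library, against 128 in the wild type library (−0.88, −1.33 to −0.45). Its neighbour 18.5 kb upstream at 51785416 to 51785739 held 81 mutant against 140 wild type reads (−0.78, −1.21 to −0.38). Together with the region 22.6 kb downstream, which held 82 mutant against 125 wild type reads (−0.60, −1.03 to −0.19), 5 of the 8 regions were lower beyond their intervals and none was higher.

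The remaining 3 tbx16 regions had intervals that included 0. The upstream one at 51782104 to 51782338 held 48 normalised reads in the mutant library, against 64 in the wild type library, and the one 16.1 kb downstream, which lies in the tbx16 gene body, 22 mutant against 33 wild type reads. The farthest, 34.3 kb upstream and inside the body of cabin1, held 28 mutant against 27 wild type reads and was the single tbx16 region not below 0. Over all 8 regions, tbx16 had 573 normalised reads in the mutant library, against 873 in the wild type library (log2 −0.61, −0.76 to −0.45).

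For msgn1 (ENSDARG00000070546), a bHLH gene that acts with tbx16 to drive progenitors into the presomitic mesoderm, the region over the start of the gene was the deepest of all 32. On chromosome 4, 292607 to 293192, it held 381 normalised reads in the mutant library, against 439 in the wild type library (−0.20, −0.41 to −0.0031). Its upper bound lay just under 0. A pair of upstream regions had no assigned gene. The one 8.14 kb away at 284312 to 284590 held 44 mutant against 86 wild type reads, 1.93-fold lower in the mutant library (−0.95, −1.55 to −0.44), and the one 7.35 kb away held 80 mutant against 106 wild type reads (−0.40, −0.85 to 0.02). All 3 lay below 0, and all 3 also lie within the body of another gene, ENSDARG00000102474.

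The third presomitic gene, tbx6 (ENSDARG00000011785), is the one mutated in fused somites and is needed for segment borders to form. It was the least uniform of the 10. The promoter region on chromosome 12, 3875555 to 3875805, held 29 normalised reads in the mutant library, against 52 in the wild type library (−0.82, −1.57 to −0.16). Inside the gene, 3.45 kb past the TSS at 3879098 to 3879361, the order was opposite, with 34 in the mutant library, against 8 in the wild type library, 3.89-fold higher (1.96, 0.91 to 3.26). That region rests on 32 recovered mutant and 9 recovered wild type reads. A further region in the gene body, 9.97 kb past the TSS, held 73 mutant against 65 wild type reads (0.17, −0.32 to 0.68). Summed over the 3 regions tbx6 had 136 normalised reads in the mutant library, against 125 in the wild type library, a difference within counting error (0.12, −0.23 to 0.49). The opposite differences at the promoter and inside the gene cancel in this sum.

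**Figure D2:**
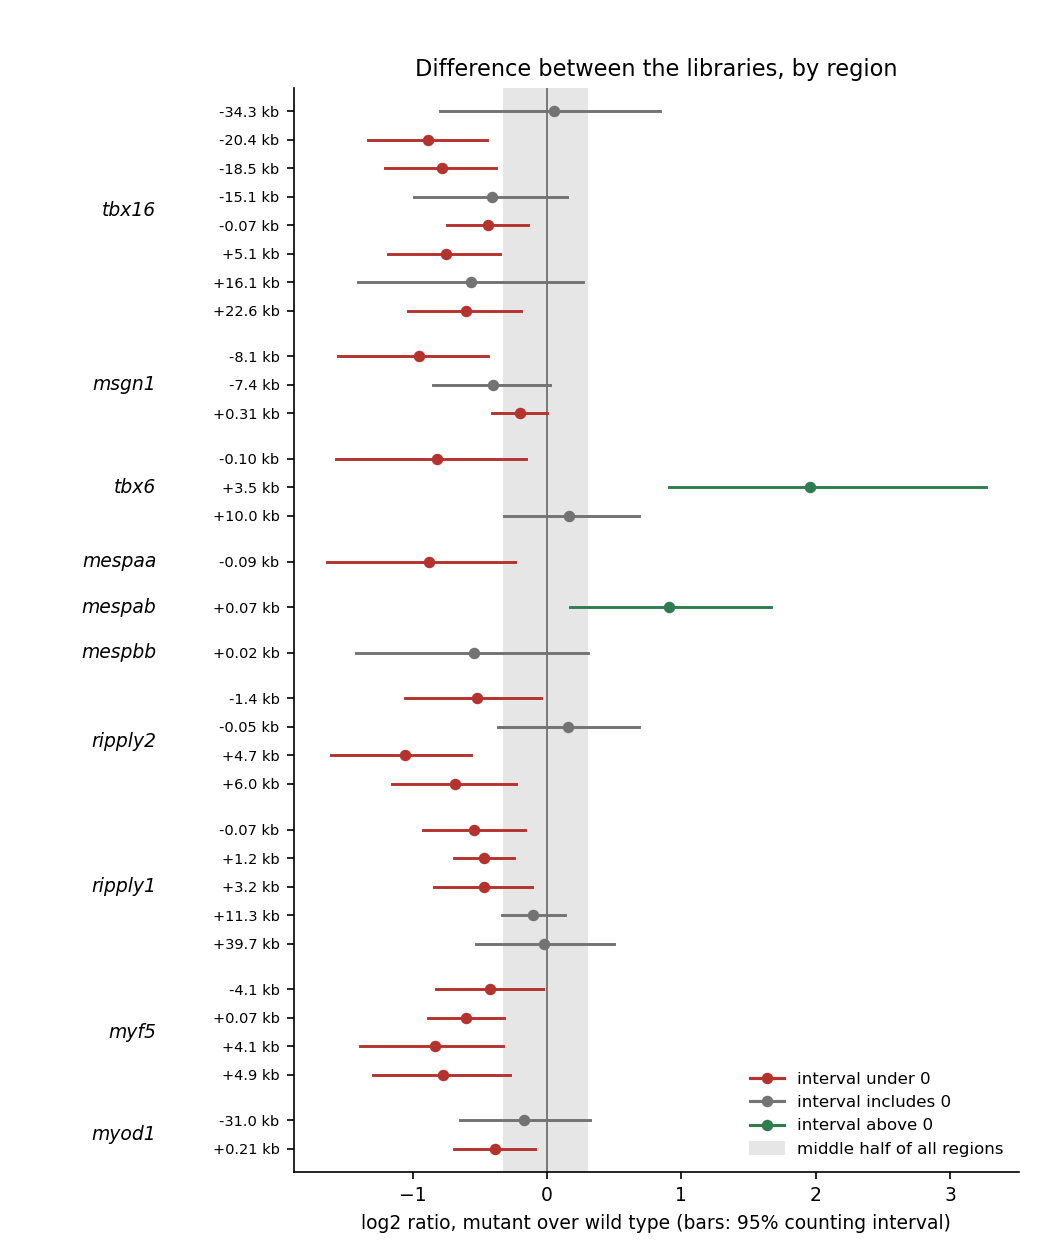
Log2 ratio, mutant over wild type, for each of the 32 regions with its 95% counting interval, coloured by whether the interval lies under, across or above 0; the grey band runs between the quartiles of all deposited regions, −0.32 and 0.30. The interval lies under 0 in 20 rows, above 0 at 1 tbx6 region and at the mespab promoter, and includes 0 in the rest.

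The mesp genes encode bHLH factors switched on in stripes in the anterior presomitic mesoderm, where they set the front and back of the next somite. Each had 1 region, at its promoter, and these were shallow. On chromosome 7, 15081323 to 15081562, the promoter of mespaa (ENSDARG00000017078) held 29 normalised reads in the mutant library, against 54 in the wild type library (−0.87, −1.64 to −0.24). On chromosome 25 the neighbouring genes mespab (ENSDARG00000068761) and mespbb (ENSDARG00000097947) had ratios of opposite sign. The mespab promoter at 10919641 to 10919972 held 46 mutant against 24 wild type reads, 1.88-fold higher in the mutant library (0.91, 0.17 to 1.67), and the mespbb promoter at 10930003 to 10930185 held 21 mutant against 31 wild type reads (−0.54, −1.42 to 0.30). Mespaa was thus lower, mespab higher and mespbb within counting error. Summed over the 3 promoters there were 96 normalised reads in the mutant library, against 109 in the wild type library (−0.18, −0.61 to 0.21). Opposite differences cancel in this sum, so it does not show that the mesp promoters were alike in both libraries.

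Ripply proteins are small adaptors that bring Groucho corepressors to T-box factors, and in zebrafish they end tbx6 and mesp activity at the forming border. The regions of ripply2 (ENSDARG00000070535) on chromosome 4 split into a promoter whose interval included 0 and 3 flanking regions whose intervals lay under 0. At the promoter, 898955 to 899178, there were 67 normalised reads in the mutant library, against 60 in the wild type library (0.16, −0.37 to 0.68). Past the end of the gene, 4.69 kb from the TSS at 903616 to 903989, the mutant library held 49 and the wild type library 103, 2.08-fold lower (−1.06, −1.61 to −0.57). This was the lowest ratio among the 32 regions. The next region, 6.04 kb past the TSS, held 67 mutant against 108 wild type reads (−0.68, −1.15 to −0.23), and one 1.35 kb upstream held 59 mutant against 85 wild type reads (−0.52, −1.05 to −0.05). The interval of the promoter overlaps those of the regions at 6.04 kb and 1.35 kb and lies apart only from that at 4.69 kb. All 4 ripply2 regions also lie within the body of a longer gene on the opposite strand, ENSDARG00000104018.

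The ratios of ripply1 (ENSDARG00000054103) on chromosome 21 were more even near the gene. The promoter at 37926041 to 37926333 held 100 normalised reads in the mutant library, against 146 in the wild type library (−0.54, −0.93 to −0.16). The deepest ripply1 region, inside the gene 1.20 kb past the TSS at 37924709 to 37925108, held 286 mutant against 396 wild type reads (−0.47, −0.69 to −0.24), and the one 3.24 kb past the TSS 111 mutant against 154 wild type reads (−0.47, −0.84 to −0.11). These 3 were lower by 1.38-fold to 1.46-fold. Farther downstream the ratios were closer to 0, with 286 mutant against 307 wild type reads at 11.3 kb (−0.10, −0.34 to 0.14) and 66 mutant against 67 wild type reads at 39.7 kb (−0.02, −0.53 to 0.50). Both intervals overlap those of the 3 nearer regions. The ripply genes together had 9 regions, 8 below 0 and 6 lower beyond their intervals.

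Among the myogenic determination genes, myf5 (ENSDARG00000007277), the earliest of the family in the segmental plate, had 4 assigned regions on chromosome 4, and all were lower beyond counting error. The promoter at 22020080 to 22020567 held 177 normalised reads in the mutant library, against 269 in the wild type library (−0.60, −0.89 to −0.32). Of all promoter regions of similar depth, those in the same level decile, 1.26% had a lower ratio. This share, taken in the same way for each somite gene promoter, was the smallest of the set. It was 3.18% at mespaa and from 3.71% to 5.03% at tbx16, tbx6, ripply1 and myod1. At msgn1 it was 11.7%, at mespbb 20.5%, at ripply2 54.5% and at mespab 87.6%. The share at myf5 is thus an extreme of the set and not a probability. Downstream of the gene, the region at 22024225 to 22024578 held 49 mutant against 88 wild type reads (−0.83, −1.39 to −0.33) and the one at 22024910 to 22025381 held 54 mutant against 93 wild type reads (−0.77, −1.29 to −0.27). The region 4.09 kb upstream held 96 mutant against 129 wild type reads (−0.42, −0.82 to −0.03). Over the 4 regions myf5 had 376 normalised reads in the mutant library, against 579 in the wild type library (log2 −0.62, −0.81 to −0.43).

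At myod1 (ENSDARG00000030110), the second factor of the pair, the promoter on chromosome 25, 30845504 to 30846102, held 165 normalised reads in the mutant library, against 216 in the wild type library (−0.39, −0.69 to −0.09). A region with no assigned gene 31.0 kb upstream held 71 mutant against 80 wild type reads (−0.17, −0.65 to 0.32). The promoter was thus lower beyond counting error and the distal region was not.

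Along the order from presomitic mesoderm to somite, the groups overlapped. The 14 regions of tbx16, msgn1 and tbx6 had a median log2 ratio of −0.50 (range −0.95 to 1.96), the 3 mesp promoters −0.54 (−0.87 to 0.91), the 9 ripply regions −0.47 (−1.06 to 0.16) and the 6 regions of myf5 and myod1 −0.51 (−0.83 to −0.17). The sums gave log2 ratios of −0.42 (−0.53 to −0.32) for the presomitic genes, −0.39 (−0.50 to −0.27) for the ripply genes and −0.52 (−0.67 to −0.36) for the myogenic genes. These 3 intervals overlap, and that of the mesp sum, −0.18 (−0.61 to 0.21), overlaps each of them. A sum pools genes that can differ from each other. In the presomitic group tbx16 had −0.61 (−0.76 to −0.45) and tbx6 0.12 (−0.23 to 0.49). Overlap of the sums thus does not show that the steps of the order are alike. By gene, the sums ran from −0.87 at mespaa to 0.91 at mespab, with myf5 and tbx16 the lowest among genes with more than 1 region.

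**Figure D3:**
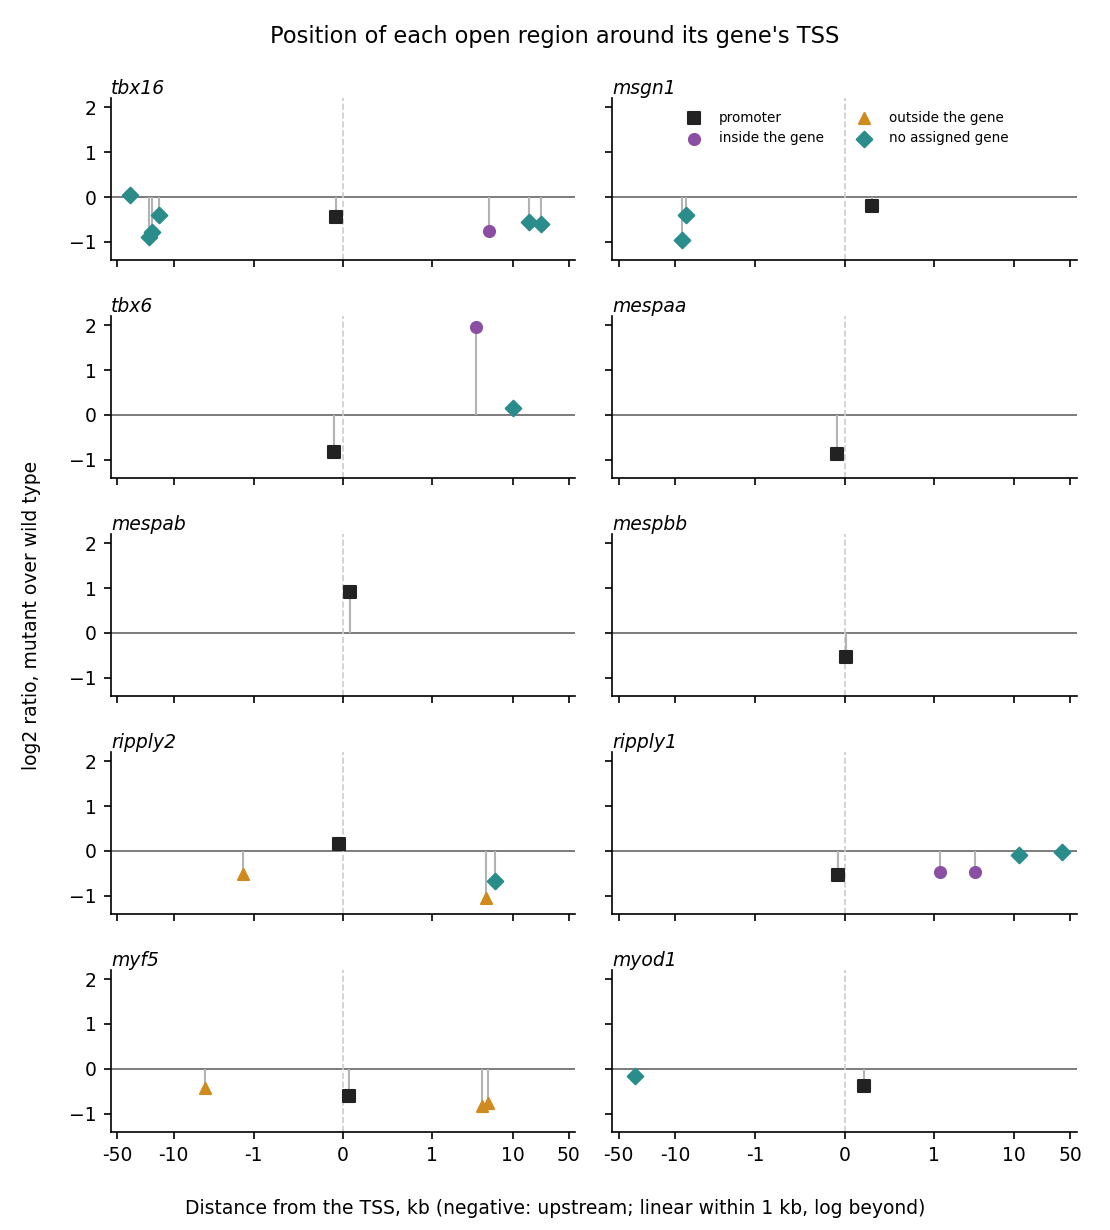
The log2 ratio of each region against the distance of its centre from the TSS of its gene in kb, negative upstream, linear within 1 kb and logarithmic beyond, with 1 panel per gene and symbols for promoter regions, assigned regions inside or outside the gene, and regions with no assigned gene. At msgn1 and ripply2 flanking regions lie lower than the promoter, and at ripply1 the 3 regions nearest the TSS lie lower than the 2 beyond 11 kb.

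Values lower beyond the interval were found at promoters and from 1 to 10 kb away, and less often farther out, while most regions lay below 0 at each distance. Of the 10 promoter regions, those with a centre within 1 kb of the TSS, 8 lay below 0 and 7 were lower and 1 higher beyond the interval, with a median of −0.49. All promoter regions of the table had a median of 0.11, with 36.0% below 0 and 9.67% lower beyond the interval. Of the 13 regions 1 to 10 kb from the TSS, 11 lay below 0, against 52.6% of all regions given to a TSS at that distance. Of these 13, 10 were lower beyond the interval (median −0.52), against 19.7% of all regions given to a TSS at that distance (median −0.04). Of the 9 regions 10 to 50 kb away, 8 lay below 0, against 60.5% of all regions given to a TSS at that distance. Beyond the interval, 3 of the 9 (33.3%) were lower (median −0.41), against 25.1% (median −0.14). All 3 were at tbx16, and no region of ripply1 or myod1 at that distance was lower beyond its interval. The 5 assigned regions outside their gene, at ripply2 and myf5, were all lower, with log2 ratios from −1.06 to −0.42, against 18.4% lower and 20.6% higher among all assigned regions outside their gene.

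The direction was more uniform among the deeper regions. With a mean of 100 or more normalised reads over both libraries, 12 of 12 regions lay below 0, 8 of 8 with a mean from 100 to 200 and 4 of 4 with 200 or more. Of all regions, 48.2% and 40.4% of those 2 level classes lay below 0. The 12 regions are at tbx16, msgn1, ripply1, myf5 and myod1 only, so depth and gene cannot be told apart. The size of the difference did not rise with depth. The median of the member regions was −0.54 with a mean under 50 and −0.52 from 50 to 100. It was −0.51 from 100 to 200 and −0.34 with 200 or more. The 5 regions above 0 were the shallower ones, 3 of them with a mean under 50 (tbx16 at 34.3 kb, tbx6 at 3.45 kb and mespab) and 2 from 50 to 100 (tbx6 at 9.97 kb and the ripply2 promoter).

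Levels can be compared between genes per length of region. In the mutant library the promoter of msgn1 had 651 normalised reads per kb (exact Poisson 95% interval 586 to 723) and that of tbx16 597 (506 to 699), and in the wild type library tbx16 had 810 (708 to 918) and msgn1 750 (685 to 822). Per kb, these 2 were the highest of the 10 promoters in both libraries, and their intervals overlap. The order depends on region width, which was 273 bp at tbx16 and 487 bp at myf5. Not divided by width, the myf5 promoter held more reads than that of tbx16 in both libraries. Next per kb in both libraries came myf5, with 363 in the mutant library, against 552 in the wild type library. Then came ripply1, with 342 in the mutant library, against 500 in the wild type library, and the intervals of myf5 and ripply1 also overlap. The myod1 promoter had 276 in the mutant library, against 361 in the wild type library, and that of ripply2 300.4 in the mutant library, against 269 in the wild type library, so they changed places between the libraries with overlapping intervals in each.

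The mesp and tbx6 promoters formed the low end. In the mutant library mespab had 139 normalised reads per kb, mespaa 121, tbx6 116 and mespbb 115, with overlapping intervals. In the wild type library mespaa had 226, tbx6 208 and mespbb 170.3, again overlapping, and mespab 72.5 (48.2 to 108), whose interval lay under that of the next promoter. Mespab was thus the lowest of the 10 in the wild type library but not in the mutant library.

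**Figure D4:**
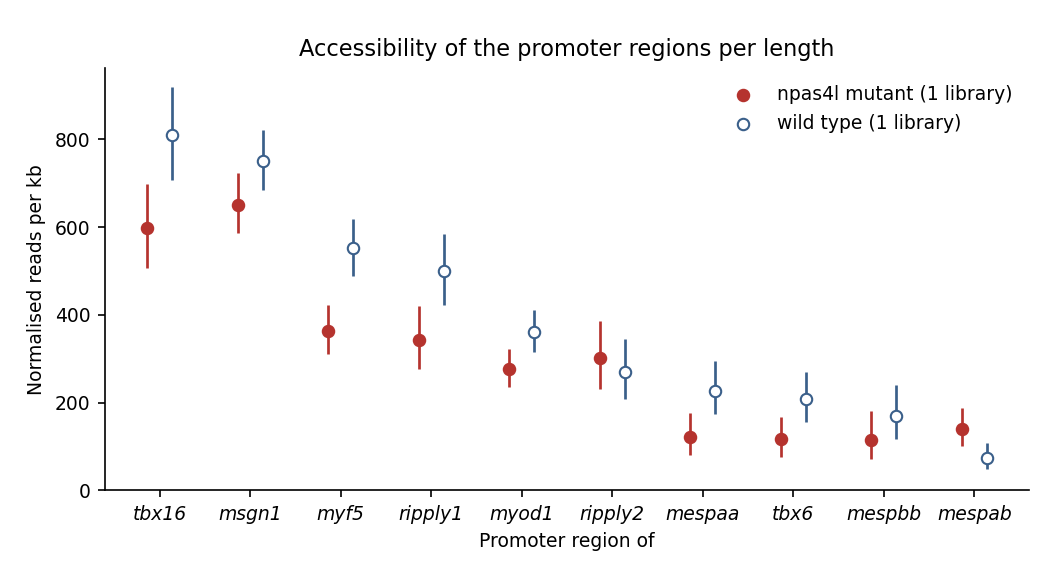
Normalised reads per kb of the promoter region of each gene, npas4l mutant filled on the left and wild type open on the right, with exact Poisson 95% intervals of the recovered reads, 1 library each, ordered by the mean of both. The tbx16 and msgn1 promoters are the highest in both libraries, and mutant points lie under wild type points except at ripply2 and mespab.

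Regions of other genes around the same loci, looked up after the members' values were seen, were mixed in direction. Within 50 kb of the 10 TSSs lay 16 further regions that belong to other genes or are nearer to another TSS. Of these, 8 were below 0, against 49.3% of all regions, with a median of −0.02. The interval lay under 0 for 5, against 18.0% of all regions, and above 0 for 1, against 20.02%. Most of the 16 are assigned to a gene. Of all regions assigned to a gene, 39.5% lay below 0, and 12.0% were lower and 25.3% higher beyond the interval. Among the 16, regions beyond their intervals were thus more often lower than higher, as among the members. Around ripply2, regions of aim1b, mrap2b and sim1b held 72 to 161 normalised reads in the mutant and 54 to 183 in the wild type library, and the intervals of all 5 included 0. Around msgn1 there were 6, of which 3 were lower, including one 13.6 kb downstream that is nearer to ENSDARG00000045914 and held 117 mutant against 208 wild type reads (−0.82, −1.17 to −0.50). On chromosome 4, which carries 11 of the 32 regions at msgn1, ripply2 and myf5, all regions had a median log2 ratio of 0.09. The nearest region with no assigned gene beyond the 50 kb limit lay 87.8 kb from tbx16 and held 34 in the mutant library, against 61 in the wild type library, while the last within it was the ripply1 region at 39.7 kb.

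Other genes of the same pathway were read from lists of assigned regions, against a median of 0.08 for all regions assigned to a gene, of which 39.5% lay below 0, 12.0% were lower and 25.3% higher beyond the interval. The 19 assigned regions of the 10 members had a median of −0.52, with 15 lower and 2 higher. The members and all the lists, those of other tissues included, were chosen with earlier results of these data known. The contrasts between them were thus not drawn blind. For tailbud and posterior progenitor genes, 15 regions at 8 genes had a median of −0.29, with 7 lower and none higher. Unless said otherwise, the regions named from a list are those with its largest absolute log2 ratios. They were taken among regions with a mean of at least 50, 1 per gene, so they are extremes and not typical values. Outside sp5l, a Wnt-responsive Sp factor gene, a region held 69 in the mutant library, against 130 in the wild type library (−0.90, −1.35 to −0.47). A region inside the homeobox gene eve1 held 35 mutant against 65 wild type reads (−0.87, −1.53 to −0.26). The promoter of tbx16l, listed as tbx6l, a T-box partner of tbx16, held 79 mutant against 136 wild type reads (−0.78, −1.21 to −0.37).

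Segmentation clock genes had 33 regions at 12 genes, with a median of −0.23, 14 lower and 1 higher. Inside notch2, a Notch receptor gene, a region held 34 in the mutant library, against 78 in the wild type library (−1.17, −1.83 to −0.59). A region outside dlc, an oscillating Delta ligand gene, held 225 mutant against 363 wild type reads (−0.69, −0.94 to −0.45). Another outside her15.1, a Hairy/E(spl) repressor gene, held 135 mutant against 196 wild type reads (−0.53, −0.87 to −0.21). Genes of somite borders, polarity and epithelium had 25 regions at 16 genes with a median of −0.11, 6 lower and 1 higher. The region inside fbn2b, a fibrillin gene, held 35 in the mutant library, against 72 in the wild type library (−1.02, −1.68 to −0.43), the promoter of meox1, a homeobox gene of the somite, 76 mutant against 133 wild type reads (−0.80, −1.25 to −0.40), and a promoter region of foxc1a, needed for somite formation, 73 mutant against 120 wild type reads (−0.71, −1.15 to −0.28).

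Skeletal muscle genes had 21 regions at 13 genes with a median of −0.18, 8 lower and 2 higher. The region inside six4a held 130 in the mutant library, against 214 in the wild type library (−0.71, −1.05 to −0.40) and the promoter of six1a 81 mutant against 127 wild type reads (−0.64, −1.07 to −0.23), both homeobox genes that act upstream of the myogenic factors. The promoter of acta1b, a muscle actin gene, held 87 mutant against 131 wild type reads (−0.58), with an interval under 0. The lowest value of the list, chosen after its values were seen, was at mylpfa, a fast myosin light chain gene. Its region held 5 normalised reads in the mutant library, against 75 in the wild type library (−3.66, −5.48 to −2.54). That region fell short of the minimum mean required of the other muscle regions named. At the other end, the highest log2 ratio of the list was 0.68. The 2 regions higher beyond their intervals were not among those named.

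Markers of other tissues in the embryo had medians on both sides of 0. All regions assigned to a gene had a median of 0.08, with 12.0% lower and 25.3% higher beyond the interval. Endothelial and blood genes, the lineages that need Npas4l, had 18 regions with a median of −0.27, 10 lower and 1 higher, and 5323 normalised reads in the mutant library, against 6149 in the wild type library. Epidermis genes had 15 regions with a median of −0.14 (5 lower, 2 higher), with 2068 normalised reads in all in the mutant library, against 2123 in the wild type library. Within these sums, a single cldni region held 283 mutant against 23 wild type reads. Lateral plate and intermediate mesoderm genes had 19 with a median of −0.08 (5 lower, 4 higher), and 3394 mutant against 3254 wild type reads. Neural genes had 32 with a median of −0.05 (3 lower, 3 higher), and 8089 mutant against 8216 wild type reads. The 3 regions of pax2a are in both of these last 2 lists. Notochord genes had 15 with a median of 0.11 (1 lower, 4 higher), and 2115 mutant against 1951 wild type reads. The 4 higher were 26.7% of the notochord regions, close to the 25.3% of all assigned regions. Broadly expressed genes had 15 with a median of 0.15 (none lower, 5 higher), and 6958 mutant against 6089 wild type reads. The notochord median was 0.02 and the broadly expressed one 0.06 when centred on regions of the same level and promoter class, and 0.02 and 0.04 when regions with no assigned gene up to 50 kb away were added. Whether these shifts have a part in the lower values of the somite genes was not tested.

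**Figure D5:**
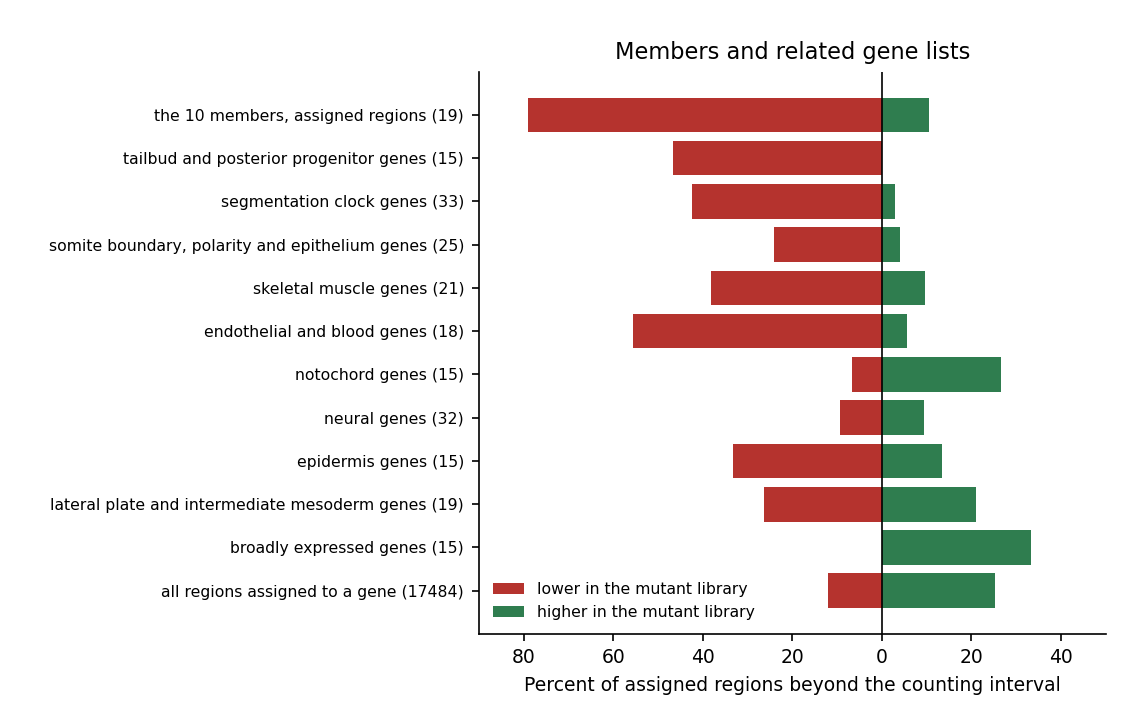
Percent of the assigned regions of each list whose counting interval lies under 0 (left bars) or above 0 (right bars), with the number of regions in brackets and all regions assigned to a gene as the last row. The 10 members have 15 of 19 regions lower and 2 higher, and the broadly expressed genes none lower and 5 of 15 higher.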

How the data were processed

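Library columns were grouped by the genotype in the labels. Per the submitters' processing notes, the tools were STAR 2.5.3a, Trimmomatic 0.36, deepTools 2.5.4, MACS2, Picard 2.9.0, DESeq and DESeq2 1.14.1, on GRCz10 (danRer10). Their roles, region merging, duplicate removal, the Tn5 shift and whether starts begin at 0 or 1 are not given in the sources used here. In the deposited table the library columns and their mean are scores, read counts that the authors normalised and rounded, as the values show. The deposited log2 ratio equals the one used here. The deposited fraction of a region in the gene body placed it inside or outside its gene.

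Reads for the intervals were recovered by dividing by a factor estimated from the values, 1.06505 for the mutant library, which 99.96% of its values up to 4000 fit, and its reciprocal 0.939 for the wild type. The interval code was tested on simulated data. Of the 10 genes, myf5 was matched by identifier through a gene name table and the rest by symbol. The 10 related lists were matched by symbol, that table or RefSeq synonyms (GRCz12tu, names only). Described in full were each gene's promoter, its deepest region, its largest absolute log2 ratio and any 2-fold region, and up to 3 regions per list with a mean of at least 50, 1 per gene. Members and lists were chosen with earlier results of these data known. Alternatives were another pseudocount, equal totals, centring by level and promoter class, a minimum mean, narrower assignment, wider assignment for the lists and 1.5-fold. Scripts ran in matplotlib 3.10.9, scipy 1.17.1, pandas 2.3.3, numpy 2.4.6 and Python 3.11.15.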

Additional observations from a re-analysis of the deposited data

How the results depend on the processing

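The median log2 ratio of the member regions stayed between −0.52 and −0.45 under every alternative run. The number lower beyond counting error was 21 of 32 with equal totals. With assigned regions only it was 15 of 19, against 12.0% of all assigned regions. With a mean of at least 50, which leaves out 7 regions, 18 were lower and 0 higher beyond the interval and 0 were 2-fold higher. Of all regions, 16.4% to 18.1% were lower and 15.4% to 30.6% higher in the level classes from 50 up. The shares of all regions with equal totals and with 1 region per gene are not given here. At 1.5-fold in place of 2-fold, 12 were lower (12.5% of all regions) and 2 higher (11.4%). With 1 region per gene, the deepest, an alternative chosen after seeing the data, 7 of 10 were lower and 1 higher beyond the interval, 0 were 2-fold lower and 0 2-fold higher. Centred on the median of its level and promoter class, the ripply1 region at 39.7 kb turned to 0.13; the median of the lateral plate and intermediate mesoderm genes turned to 0.0081 with a mean of at least 50; the cause was not tested. Of the 10 list medians, 6 moved with that centring by more than the counting error of the list's summed reads. When regions with no assigned gene up to 50 kb away were added, 6 moved by that measure. This is the error of a sum and not of a median over regions. Under centring, the medians became −0.18 for somite border genes, −0.28 for skeletal muscle, −0.26 for epidermis, −0.12 for neural, 0.02 for notochord and 0.06 for broadly expressed genes. With regions added, they became −0.22 for somite border genes, −0.18 for endothelial and blood, −0.16 for lateral plate and intermediate mesoderm, −0.10 for neural, 0.02 for notochord and 0.04 for broadly expressed genes. With a mean of at least 50, that of endothelial and blood genes was also −0.18. With assigned regions only, the tbx6 median was 0.57 in place of 0.17 and the msgn1 median −0.20 in place of −0.40, each then resting on fewer regions. Depth limits the 7 regions with a mean under 50, which are at tbx16, tbx6 and the mesp genes. No paired analysis was possible because there was 1 library per genotype.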

Other observations

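Single regions of the lists of other tissues, named by the same rule, differed in both directions. In the epidermis list a region inside cldni, a claudin gene, held 283 normalised reads in the mutant library, against 23 in the wild type library (log2 3.56, 3.05 to 4.32). Another region inside cldni had the opposite direction, with 50 mutant against 117 wild type reads (−1.21, −1.75 to −0.73). The promoter of krt5, a keratin gene, held 91 mutant against 154 wild type reads (−0.75, −1.16 to −0.38), and that of gata3 226 mutant against 320 wild type reads (−0.50, −0.76 to −0.25). In the notochord list regions of foxa2 (0.81, 0.23 to 1.47), chd (0.61, 0.31 to 0.92) and twist2 (0.50, 0.23 to 0.78) were higher in the mutant library. In the neural list the otx2 promoter held 246 mutant against 138 wild type reads (0.83), its interval above 0, a region inside pax6b 292 mutant against 472 wild type reads (−0.69, −0.91 to −0.48) and one at sox1b 84 mutant against 135 wild type reads (−0.68, −1.10 to −0.28).

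Among lateral plate and intermediate mesoderm genes the promoter of osr1 (−0.47, −0.80 to −0.14) was lower in the mutant library, as was that of lhx1a (−0.54, −0.95 to −0.16), and a region inside gata6 was higher (0.53, 0.22 to 0.85). Of the broadly expressed genes lsm12b (0.80, 0.39 to 1.24), ubc (0.55, 0.30 to 0.80) and actb1 (0.33, 0.18 to 0.47) were higher. In the endothelial and blood list 3 of 18 regions were lower by 2-fold or more, against 306 of all 17484 regions assigned to a gene. The lowest lay outside lmo2, with 16 mutant against 51 wild type reads (−1.61, −2.60 to −0.82). Among regions with a mean of at least 50, and taking 1 per gene, the largest differences were inside lmo2, with 53 mutant against 94 wild type reads, inside etv2, with 285 mutant against 421 wild type reads, and inside gata2a, with 208 mutant against 254 wild type reads (−0.29, −0.57 to −0.02).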
